A study of Mus musculus with 8 samples.

Results

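Solute carriers are membrane proteins that move ions, nutrients, vitamins, metals and metabolic intermediates across cell and organelle membranes. Of 296 solute carrier genes measured in mouse distal colon, 72 had a mean log2 expression of at least 8.5 over all 8 arrays and are described here. Members were taken by gene symbol (Slc, a family number, the letter a and a member number), with 1 probe set per gene, the one with the highest mean. The genes Slc9a2, Slc9a3, Slc26a3, Slc31a1 and Slc2a1 were left out by name. The level over all arrays therefore chose the members and is given as a description. The difference between the groups took no part in that choice, although earlier results on these data were known when the members were chosen.

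The samples came from male BALB/c mice, an inbred strain, aged 5 weeks, on MoGene 1.0 ST arrays of the whole transcript. The AA group (n = 4 arrays) had appendicitis induced and, 1 week later, an appendicectomy. In the SS group (n = 4 arrays) a first sham operation was followed by a second one after 1 week. All mice of both groups were thus operated on 2 times. Each of 2 labelled batches held 2 AA and 2 SS arrays, and 100 ng of RNA was labelled for an array. A harvest time is not stated for the arrays, while a deposited gene set list has 3 days from appendicectomy in its title. No label ties a sample to an animal, so each p-value reflects only how far these samples spread, which may be technical.

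In the colon, the apical and basolateral carriers of absorptive cells (colonocytes) take up short-chain fatty acids made by bacteria and exchange sodium, chloride, bicarbonate and sulfate. Carriers in the inner mitochondrial membrane pass phosphate, nucleotides and acids between cytosol and matrix, and carriers of the Golgi and the endoplasmic reticulum supply sugars, nucleotide sugars and zinc to the secretory route. Since whole tissue was measured, fewer cells of a type and less RNA per cell cannot be told apart.

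The tissue label was set against marker lists. All 16 colonocyte markers lay above 7.13, the median level of the probe sets tested, and their mean log2 level ran from 12.16 to 12.32 in AA and from 11.97 to 12.22 in SS, with 12 of 16 higher in AA, 2 of them (Krt20 and Car4) at an unadjusted p under 0.05. Of the lists for other cells, fibroblast genes were higher in AA in 8 of 8, 6 at that p. Their means ran from 10.38 to 10.66 in AA against 9.68 to 10.33 in SS. Smooth muscle genes were higher in 10 of 10, 5 at that p (10.31 to 10.98 against 10.16 to 10.57). Mesothelium genes were higher in 7 of 7, 5 at that p (7.12 to 8.39 against 6.16 to 7.44). Adipocyte genes were lower in 7 of 7, 0 at that p (6.41 to 7.68 against 7.01 to 8.63). Enteric neuron genes were higher in 7 of 7, 4 at that p (6.94 to 7.18 against 6.66 to 6.82), and macrophage genes in 7 of 7, 3 at that p (7.70 to 8.89 against 7.32 to 8.21). B cell genes were lower in 5 of 5, all at that p (5.42 to 5.997 against 6.27 to 6.59). Other lists were mixed in sign or held 0 genes at that p. Goblet cell genes were higher in 5 of 7 and enteric glia genes in 2 of 4, 0 at that p. Endothelium genes were higher in 4 of 7 and red blood cell genes in 1 of 2, each with 1 at that p. T cell genes were lower in 5 of 5, neutrophil genes higher in 5 of 5 and skeletal muscle genes higher in 3 of 3, 0 at that p in each. Over all probe sets 5.38% were higher and 2.7% lower at that p, and 51% were higher by sign. The part of these cells in the results was not tested.

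One array stood apart in some of the genes that mark position along the gut. In AA replicate 2, Hoxd13, a transcription factor gene of the hindgut end, stood at 6.54, against 8.82 to 10.62 in the other AA arrays and 8.96 to 10.05 in SS. Hoxb13, of the same kind, stood at 8.23 there, against 9.63 to 10.61 and 9.80 to 10.31. Fabp2, a fatty acid-binding protein of small intestinal enterocytes, stood at 12.68 in AA replicate 2 and at 6.72 to 10.05 in the other 7 arrays. Alpi, an alkaline phosphatase of the small intestine, stood at 8.90 there and at 5.36 to 6.59 in the others. Both come from a small intestine list of 8 measured genes, 3 higher and 5 lower in AA by sign. Its other genes, Lct, Fabp6, Apoa4, Apob, Sis and Rbp2, differed between the groups by only -0.18 to 0.039. Fabp2 and Alpi thus do not stand for the whole list by group difference, which does not show the other genes in AA replicate 2 alone. Only 2 of the 8 genes, Fabp2 and Rbp2, had a mean above 7.13, the median level of the probe sets tested. Hoxd11 was lowest in that array, at 6.88, close to the 7.01 of SS replicate 2. Hoxa13 (8.31, against 7.88 to 8.504) and Hoxd12 (5.65, against 5.59 to 6.30) lay within the range of the other arrays. The part of position along the gut in the results was not tested. The 10 members at an unadjusted p under 0.05 are given with and without AA replicate 2. So are other members given with a difference of their own, where that array moved it by over 1.5 times. Members given only by level or within a range are not.

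No solute carrier passed the test over all genes. In limma, with batch as a term, 0 of the 72 members and 0% of all probe sets reached an adjusted p under 0.05, and the lowest value among the members was 0.298. An unadjusted p under 0.05 was seen for 10 members, 9 with lower values in AA and 1 with a higher value, or 12.5% and 1.39% of them. Over all 18154 probe sets tested, 8.08% reached that p, 2.7% lower and 5.38% higher. Among the 4244 probe sets with a mean of at least 8.5 it was 11.1%, with 2.99% lower and 8.15% higher. The members' share on the lower side thus lay above both backgrounds and the share on the higher side below both. Genes of an array share its RNA, so the 9 are not 9 separate observations, and the list as such was not tested.

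The median difference over the 72 members was -0.0061 (log2, AA minus SS), against 0.0033 over all probe sets and 0.021 over those of at least 8.5. By sign alone 35 members were higher and 37 lower, where 51% of all probe sets were higher and 49% lower, and 56.2% and 43.8% of those of at least 8.5. In 5 members, 6.94% of them, the highest AA value was under the lowest SS value, against 2.18% of all probe sets and 1.91% of those of at least 8.5. No member had all AA arrays above all SS arrays, which 4.21% of all probe sets and 6.72% of those of at least 8.5 had. In both batches the sign was negative in 22 members (30.6%), against 20.5% of all probe sets and 20.2% of those of at least 8.5. It was positive in both in 11 members (15.3%), against 25.1% and 29.1%. A difference of at least 0.5 in size was seen in 6 members, or 8.33%, against 2.66% of all probe sets and 3.35% of those of at least 8.5. Within batch 1 the median difference was 0.079, against 0.024 over all probe sets and 0.12 over those of at least 8.5. Within batch 2 it was -0.14, against -0.0005 and -0.066. The turn in sign was thus shared with the probe sets of at least 8.5.

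The count at an unadjusted p under 0.05 rested in part on single arrays. It was 8 without AA replicate 2 (7 lower, 1 higher), beside 2.72% lower and 4.798% higher over all probe sets, and 6 of these 8 were among the 10. Without AA replicate 1 it was 19 (16 lower, 3 higher), beside 3.83% and 5.07%. Without SS replicate 2 it was 4 (3 lower, 1 higher), beside 1.77% and 3.62%, and without SS replicate 4 it was 5, all lower, beside 1.79% and 3.22%. With AA replicate 2 and SS replicate 1 both left out it was 23 (21 lower, 2 higher), a setting chosen after the data were seen, under which 6.70% of all probe sets were lower and 5.92% higher at that p. In batch 1 alone 3 were lower and 3 higher, beside 2.66% and 4.10%, and in batch 2 alone 16 were lower and 1 higher, beside 7.76% and 5.28%. With quantile normalization it was 14 lower and 0 higher, against 5.07% and 4.52% of all probe sets. The shares under these settings were not counted for probe sets of at least 8.5. SS replicate 1 was the lowest array in 44.98% of those probe sets, against 24.9% of all. Slc2a13, Slc26a2 and Slc25a3 kept an unadjusted p under 0.05 whichever single array was left out.

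**Figure D1:**
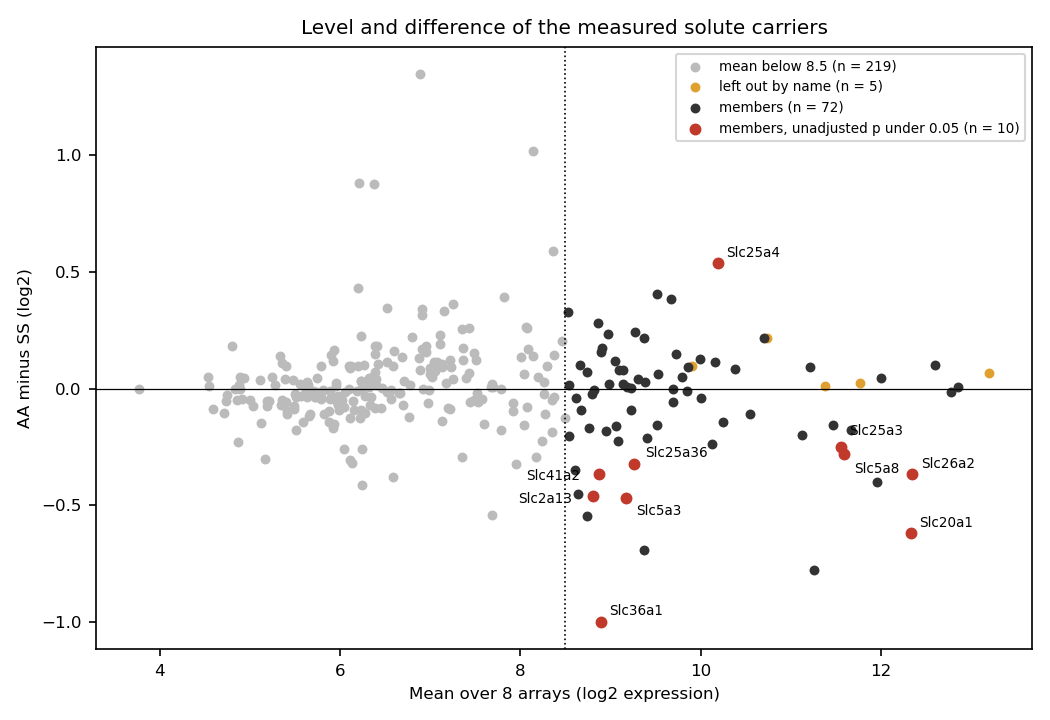
Mean log2 expression over 8 arrays (horizontal axis) against the difference AA minus SS on the log2 scale (vertical axis) for 296 solute carriers, 1 point per gene, with the dotted line at the level of 8.5 that admitted members. The 10 members at an unadjusted p under 0.05 are red, and 9 of them lie below 0.

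Promoter windows of 4 members are shown, 3 of them lower in AA at an unadjusted p under 0.05. The fourth, Slc25a4, was the single member higher at that p. The 3 were picked from the 9 lower members and not by rank. Slc26a2, with a smaller p in limma than Slc5a8, is not shown. Each window covers 250 bases before and 50 bases after the RefSeq start of the gene in build GRCm38.p6, and capitals mark the motifs searched. The windows are chr15:91573212-91573511 (minus strand), chr10:88885742-88886041 (plus strand), chr10:91123918-91124217 (minus strand) and chr8:46211013-46211312 (minus strand).
Slc2a13: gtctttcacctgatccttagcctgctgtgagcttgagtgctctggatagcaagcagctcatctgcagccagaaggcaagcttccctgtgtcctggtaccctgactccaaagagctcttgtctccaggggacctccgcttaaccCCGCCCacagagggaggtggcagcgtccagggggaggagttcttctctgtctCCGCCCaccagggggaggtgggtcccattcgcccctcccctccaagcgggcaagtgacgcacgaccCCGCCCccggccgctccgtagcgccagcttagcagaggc
Slc5a8: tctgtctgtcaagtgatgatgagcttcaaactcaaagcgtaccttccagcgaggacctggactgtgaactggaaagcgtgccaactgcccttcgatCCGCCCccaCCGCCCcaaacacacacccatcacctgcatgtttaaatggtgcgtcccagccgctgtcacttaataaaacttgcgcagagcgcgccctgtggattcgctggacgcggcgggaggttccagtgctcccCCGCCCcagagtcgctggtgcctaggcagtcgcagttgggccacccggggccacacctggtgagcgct
Slc25a3: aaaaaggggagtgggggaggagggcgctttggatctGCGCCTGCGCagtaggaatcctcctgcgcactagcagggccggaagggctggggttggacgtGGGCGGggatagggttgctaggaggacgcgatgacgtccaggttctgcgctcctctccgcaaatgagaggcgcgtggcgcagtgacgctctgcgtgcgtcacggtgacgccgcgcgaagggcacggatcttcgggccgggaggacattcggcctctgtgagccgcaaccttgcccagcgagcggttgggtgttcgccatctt
Slc25a4: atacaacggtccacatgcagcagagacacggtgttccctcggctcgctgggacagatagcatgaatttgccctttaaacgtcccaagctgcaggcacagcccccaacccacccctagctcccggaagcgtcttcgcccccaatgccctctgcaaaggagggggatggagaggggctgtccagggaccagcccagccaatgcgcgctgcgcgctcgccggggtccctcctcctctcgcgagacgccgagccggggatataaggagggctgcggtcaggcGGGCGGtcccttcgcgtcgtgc
The GC box was searched as GGGCGG and the TATA box as TATAAA. The HNF4A site was searched as CAAAGTCCA and the cAMP response element as TGACGTCA, beside an NRF1 site, all on both strands, and matches may overlap. Slc2a13 and Slc5a8 held 3 GC boxes each, Slc25a3 held 1 GC box and 1 NRF1 site, and Slc25a4 held 1 GC box. None of the 4 windows held the other 3 motifs in these letters.

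The table of windows matched 57 of the 72 members, with 65 windows, some genes having several starts. A GC box stood in 69.2% of the members' windows, against 35.7% of 32851 windows of all genes. A TATA box stood in 4.62% against 13.6%, and an NRF1 site in 9.23% against 4.60%. The median GC content was 62.7% in the members' windows and 52.7% in all. Members were admitted by their level, and windows of other genes with a mean of at least 8.5 were not counted apart. The part of the level in these contrasts was not tested. Among the 9 windows of members lower in AA at an unadjusted p under 0.05, 7 held a GC box, or 77.8%, near the share of the members as a whole. Slc25a3 and Slc25a4, which differed between the groups in opposite directions, both had 65.7% GC.

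Carriers of phosphate and sulfate comprised 3 members, and 2 of them were lower in AA at an unadjusted p under 0.05. For this and the classes below, the shares over all probe sets were 2.7% lower and 5.38% higher at that p, and 49% lower by sign. No class was tested as such. Slc26a2, the sulfate transporter that supplies sulfate for the modification of mucins and proteoglycans, read 12.25, 12.04, 12.10 and 12.27 in AA replicates 1 to 4 and 12.42, 12.68, 12.52 and 12.51 in SS. Every AA array lay below every SS array. The difference was -0.37 ± 0.10 (SE), or 77.6% of the SS level (adjusted p = 0.358), with -0.40 in batch 1 and -0.33 in batch 2. It was -0.32 without AA replicate 2.

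Slc20a1, a sodium-phosphate cotransporter present in most cells, read 12.49, 11.25, 12.12 and 12.25 in AA and 12.65, 12.95, 12.54 and 12.44 in SS. AA replicate 2 was the lowest of all, and AA replicate 1 lay within the SS range. The difference of -0.62 ± 0.25 (SE; adjusted p = 0.579) became -0.31 without AA replicate 2 (adjusted p = 0.573). The unadjusted p lay above 0.05 when SS replicate 1, 2 or 3 was left out. Slc34a2, the apical sodium-phosphate cotransporter of epithelia, ranged from 9.40 to 10.74 in AA and from 8.20 to 10.06 in SS. Its extremes were AA replicate 2 at the top and SS replicate 1 at the bottom, and the groups overlapped. Its difference of 0.38 ± 0.43 (SE) was 0.029 without AA replicate 2 and -0.34 with both of these arrays left out.

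Among the 4 carriers of mono- and dicarboxylates, 1 was lower at an unadjusted p under 0.05. Slc5a8, the sodium-coupled uptake route for butyrate and other short-chain fatty acids in the colon, read 11.44, 11.43, 11.56 and 11.38 in AA and 11.59, 11.91, 11.69 and 11.74 in SS. The groups did not overlap, although AA replicate 3 and SS replicate 1 stood close together. The difference was -0.28 ± 0.10 (SE), 82.3% of the SS level (adjusted p = 0.505), and -0.27 without AA replicate 2. Without SS replicate 2 it was -0.21, with an unadjusted p above 0.05. Slc16a1, the proton-coupled transporter MCT1 that carries the same fatty acids, had a mean of 12.03 ± 0.07 in AA against 11.98 ± 0.12 in SS (SD, n = 4 each). Its difference of 0.044 had a 95% interval of -0.17 to 0.25 and was 0.015 without AA replicate 2. The difference between these genes in their response was not tested. Slc13a2, a sodium-dicarboxylate cotransporter, ranged from 9.16 to 10.58 in AA and from 9.33 to 10.19 in SS, with a difference of 0.049 ± 0.34 (SE) that turned to -0.25 without AA replicate 2.

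Of the 7 carriers of sugars, polyols and sugar phosphates, 5 were lower by sign, where 49% of all probe sets were. An unadjusted p under 0.05 was seen for 2 of the 7, both lower, where 2.7% of all probe sets were lower at that p. Both of these 2 carry myo-inositol, a polyol that serves as an osmolyte and as the base of phosphoinositides. Slc2a13, the proton-coupled myo-inositol transporter, read 8.71, 8.60, 8.43 and 8.59 in AA and 8.96, 8.98, 8.94 and 9.28 in SS. No AA array reached the lowest SS array. It had the smallest p of the members, with a difference of -0.46 ± 0.11 (SE), 72.7% of the SS level (adjusted p = 0.298). The difference was -0.32 in batch 1, -0.60 in batch 2 and -0.47 without AA replicate 2.

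Slc5a3, the sodium-coupled myo-inositol transporter, read 9.20, 8.62, 9.28 and 8.64 in AA and 9.35, 9.50, 9.25 and 9.52 in SS. Its AA arrays fell into a high and a low pair, each with 1 array per batch, and AA replicate 3 reached the lowest SS array. The difference was -0.47 ± 0.17 (SE; adjusted p = 0.531). Without AA replicate 2 it was -0.34 with an unadjusted p above 0.05, as it also had when AA replicate 4 or SS replicate 2 or 4 was left out. Slc37a2, a sugar-phosphate exchanger of the endoplasmic reticulum, read 11.83, 9.39, 11.21 and 11.07 in AA and 11.48, 12.35, 11.51 and 11.25 in SS. Its difference of -0.78 ± 0.47 (SE) was -0.18 without AA replicate 2, so 1 array set most of it. Slc37a3, of the same family, differed by 0.22 ± 0.12 (SE), the only member of the class with a difference above 0.1. The other 3, Slc37a1, Slc5a1 and Slc50a1, lay between -0.14 and 0.019.

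**Figure D2:**
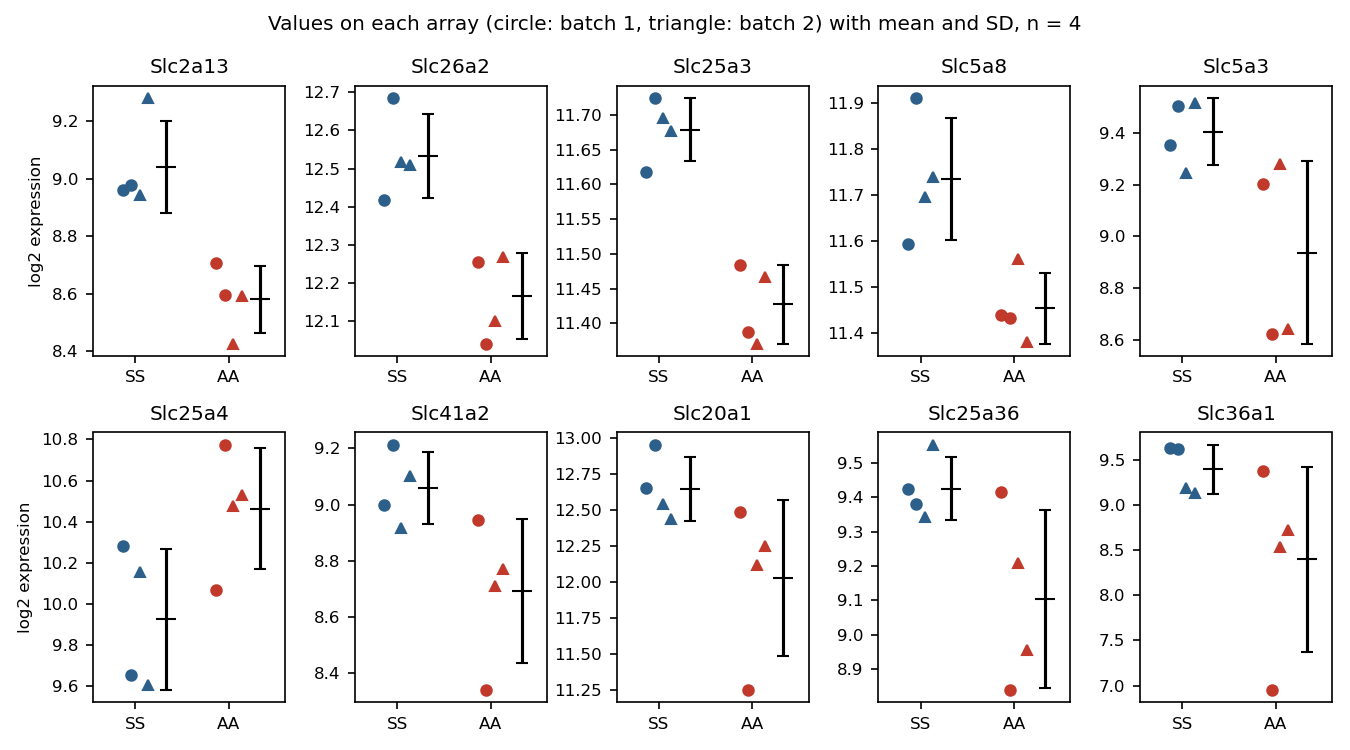
Log2 expression on each array (vertical axis, a scale of its own per panel that does not start at 0) of the 10 members at an unadjusted p under 0.05, SS in blue and AA in red, with the mean and SD of 4 arrays as black bars. In Slc2a13, Slc26a2, Slc25a3 and Slc5a8 the groups do not overlap, circles stand for batch 1 and triangles for batch 2, and the lowest AA circle in Slc20a1, Slc36a1, Slc41a2 and Slc25a36 is AA replicate 2.

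The Slc25 family, classed here as mitochondrial carriers by family and not by the location of each protein, formed the largest class. It had 15 members, 8 higher and 7 lower by sign, and a median difference of 0.0083. Slc25a3, which brings phosphate into the matrix for ATP synthesis, read 11.48, 11.39, 11.37 and 11.47 in AA and 11.62, 11.72, 11.70 and 11.68 in SS. The groups were apart, and the SD was 0.06 in AA and 0.05 in SS. The difference of -0.25 ± 0.08 (SE) came to 84.0% of the SS level (adjusted p = 0.463), with -0.24 in batch 1, -0.27 in batch 2 and -0.24 without AA replicate 2.

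Slc25a4, the ADP/ATP exchanger ANT1 that is abundant in muscle, was the 1 member higher in AA at an unadjusted p under 0.05. It read 10.07, 10.77, 10.48 and 10.53 in AA and 10.28, 9.65, 10.16 and 9.61 in SS. AA replicate 1 lay within the SS range and the other 3 AA arrays above it. The difference was 0.54 ± 0.20 (SE), a 1.45-fold level (adjusted p = 0.548), 0.45 in batch 1 and 0.62 in batch 2. The unadjusted p lay above 0.05 with quantile normalization (difference 0.49) and when AA replicate 2 (0.41), AA replicate 4, or SS replicate 2 or 4 was left out. Beside it, 5 of the 10 smooth muscle markers were higher in AA at an unadjusted p under 0.05, with a list median difference of 0.32. Over all probe sets 5.38% were higher at that p. The part of muscle in the difference was not tested.

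The paralog Slc25a5, the exchanger ANT2 of proliferating and epithelial cells, differed by -0.014 with a 95% interval of -0.22 to 0.19, and by -0.029 without AA replicate 2. Its 3 probe sets differed by -0.014, -0.0043 and 0.015. Slc25a36, a pyrimidine nucleotide carrier, had 2 probe sets, with differences of -0.32 ± 0.13 (SE; adjusted p = 0.592) and -0.29 ± 0.13 (SE). The former was -0.21 without AA replicate 2, and its unadjusted p lay above 0.05 then and when AA replicate 4 or SS replicate 1, 2 or 4 was left out. Slc25a44, which carries branched-chain amino acids, differed by 0.33 ± 0.15 (SE) and by 0.16 without AA replicate 2. The other 10 mitochondrial carriers lay between -0.20 and 0.16.

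Metal and heme carriers held 13 members, 8 higher and 5 lower by sign, with a median difference of 0.029. Slc41a2, a magnesium transporter, read 8.95, 8.34, 8.71 and 8.77 in AA and 9.0002, 9.21, 8.92 and 9.10 in SS. AA replicate 1 reached the lowest SS array. The difference was -0.37 ± 0.14 (SE; adjusted p = 0.552) and -0.23 without AA replicate 2. The unadjusted p lay above 0.05 without that array and without SS replicate 2 or 4.

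Slc40a1, ferroportin, which exports iron from enterocytes and macrophages, read 12.17, 11.22, 11.94 and 11.70 in AA and 12.05, 12.39, 11.99 and 12.20 in SS. Its difference of -0.40 ± 0.19 (SE) was -0.19 without AA replicate 2. Slc30a10, a manganese exporter, read 7.72, 9.29, 8.60 and 8.28 in AA and 8.62, 9.35, 8.90 and 9.21 in SS. Here AA replicate 2 was the 1 AA array within the SS range, and the difference of -0.55 ± 0.30 (SE) was -0.87 without it (adjusted p = 0.385). Slc30a4, a zinc transporter of vesicles, read 9.54, 10.36, 9.39 and 9.58 in AA and 8.82, 9.33, 9.55 and 9.54 in SS. AA replicate 2 was the highest array and SS replicate 1 the lowest. The difference of 0.40 ± 0.24 (SE) was 0.15 without AA replicate 2, 0.21 without SS replicate 1 and 0.027 without both, and its sign turned between the batches, at 0.87 and -0.062. Slc39a4, the zinc importer of the apical membrane, differed by 0.12 ± 0.21 (SE), at 0.54 in batch 1 and -0.29 in batch 2, and by 0.024 without AA replicate 2.

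Amino acid and peptide carriers comprised 9 members, 4 higher and 5 lower by sign. Slc36a1, a proton-coupled transporter of small amino acids, had the largest difference of the 72. It read 9.37, 6.95, 8.54 and 8.72 in AA and 9.63, 9.62, 9.19 and 9.13 in SS. AA replicate 2 lay far below the rest, and AA replicate 1 within the SS range. The difference was -0.998 ± 0.44 (SE), 50.1% of the SS level (adjusted p = 0.611). Without AA replicate 2 it was -0.42 (adjusted p = 0.402), while the unadjusted p lay above 0.05 when AA replicate 3 or 4 or any single SS array was left out.

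Slc6a8, the creatine transporter, read 10.19, 9.76, 10.01 and 10.09 in AA and 10.34, 10.23, 10.23 and 10.20 in SS. It was the fifth member whose groups did not overlap and is named for that, after its values were seen. Its difference of -0.24 ± 0.11 (SE; adjusted p = 0.638) was -0.13 without AA replicate 2. Slc6a14, a broad sodium- and chloride-coupled amino acid transporter, differed by 0.0060 with a 95% interval of -0.21 to 0.23, and its sign turned with quantile normalization and without AA replicate 2 (-0.047). Slc6a6, the taurine transporter, differed by 0.23 ± 0.14 (SE) and by 0.094 without AA replicate 2. The other 4 members of the class lay between -0.21 and 0.22. Slc3a2, the heavy chain that brings several amino acid exchangers to the membrane, differed by 0.15 ± 0.11 (SE), and by 0.25 without AA replicate 2.

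Carriers of sodium, protons, chloride and bicarbonate held 5 members after the genes left out by name, with 4 lower by sign. By sign 49% of all probe sets were lower. In limma 0 of the 5 had an unadjusted p under 0.05, and the median difference was -0.18. Slc4a4, the sodium bicarbonate cotransporter NBCe1 of the basolateral membrane, read 9.86, 8.18, 9.37 and 8.72 in AA and 10.04, 9.42, 9.02 and 10.40 in SS. Its groups overlapped widely, and the difference of -0.69 ± 0.39 (SE) was -0.35 without AA replicate 2. Slc12a2, the sodium-potassium-chloride cotransporter that loads secretory cells with chloride, differed by -0.038 ± 0.21 (SE), at 0.42 in batch 1 and -0.50 in batch 2, and by -0.22 without AA replicate 2. Slc12a7, a potassium-chloride cotransporter, differed by -0.18 ± 0.14 (SE).

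Vitamin and choline carriers held 5 members, 3 lower by sign and 0 at an unadjusted p under 0.05 in limma. Slc46a1, the proton-coupled folate transporter, read 9.35, 7.41, 8.38 and 8.51 in AA and 8.91, 8.88, 8.67 and 8.996 in SS. Its difference of -0.45 ± 0.33 (SE) was -0.054 without AA replicate 2. Slc44a4, which takes up thiamine pyrophosphate made by colonic bacteria, had a mean of 12.66 ± 0.06 in AA against 12.56 ± 0.13 in SS (SD, n = 4 each).

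The 4 nucleotide sugar carriers of the Golgi included Slc35a1, for CMP-sialic acid, and Slc35a3, for UDP-N-acetylglucosamine. They differed by 0.24 ± 0.18 (SE) and -0.11 ± 0.10 (SE). Slc35a1 differed by 0.11 without AA replicate 2 and by 0.066 without SS replicate 1. Slc22a18, an organic cation transporter-like protein among 4 carriers of organic ions, differed by 0.28 ± 0.14 (SE; adjusted p = 0.670), and by 0.13 without SS replicate 1. The 3 carriers of bile acids and acetyl coenzyme A lay between -0.22 and 0.083. In these 3 classes 0 members had an unadjusted p under 0.05 in limma.

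**Figure D3:**
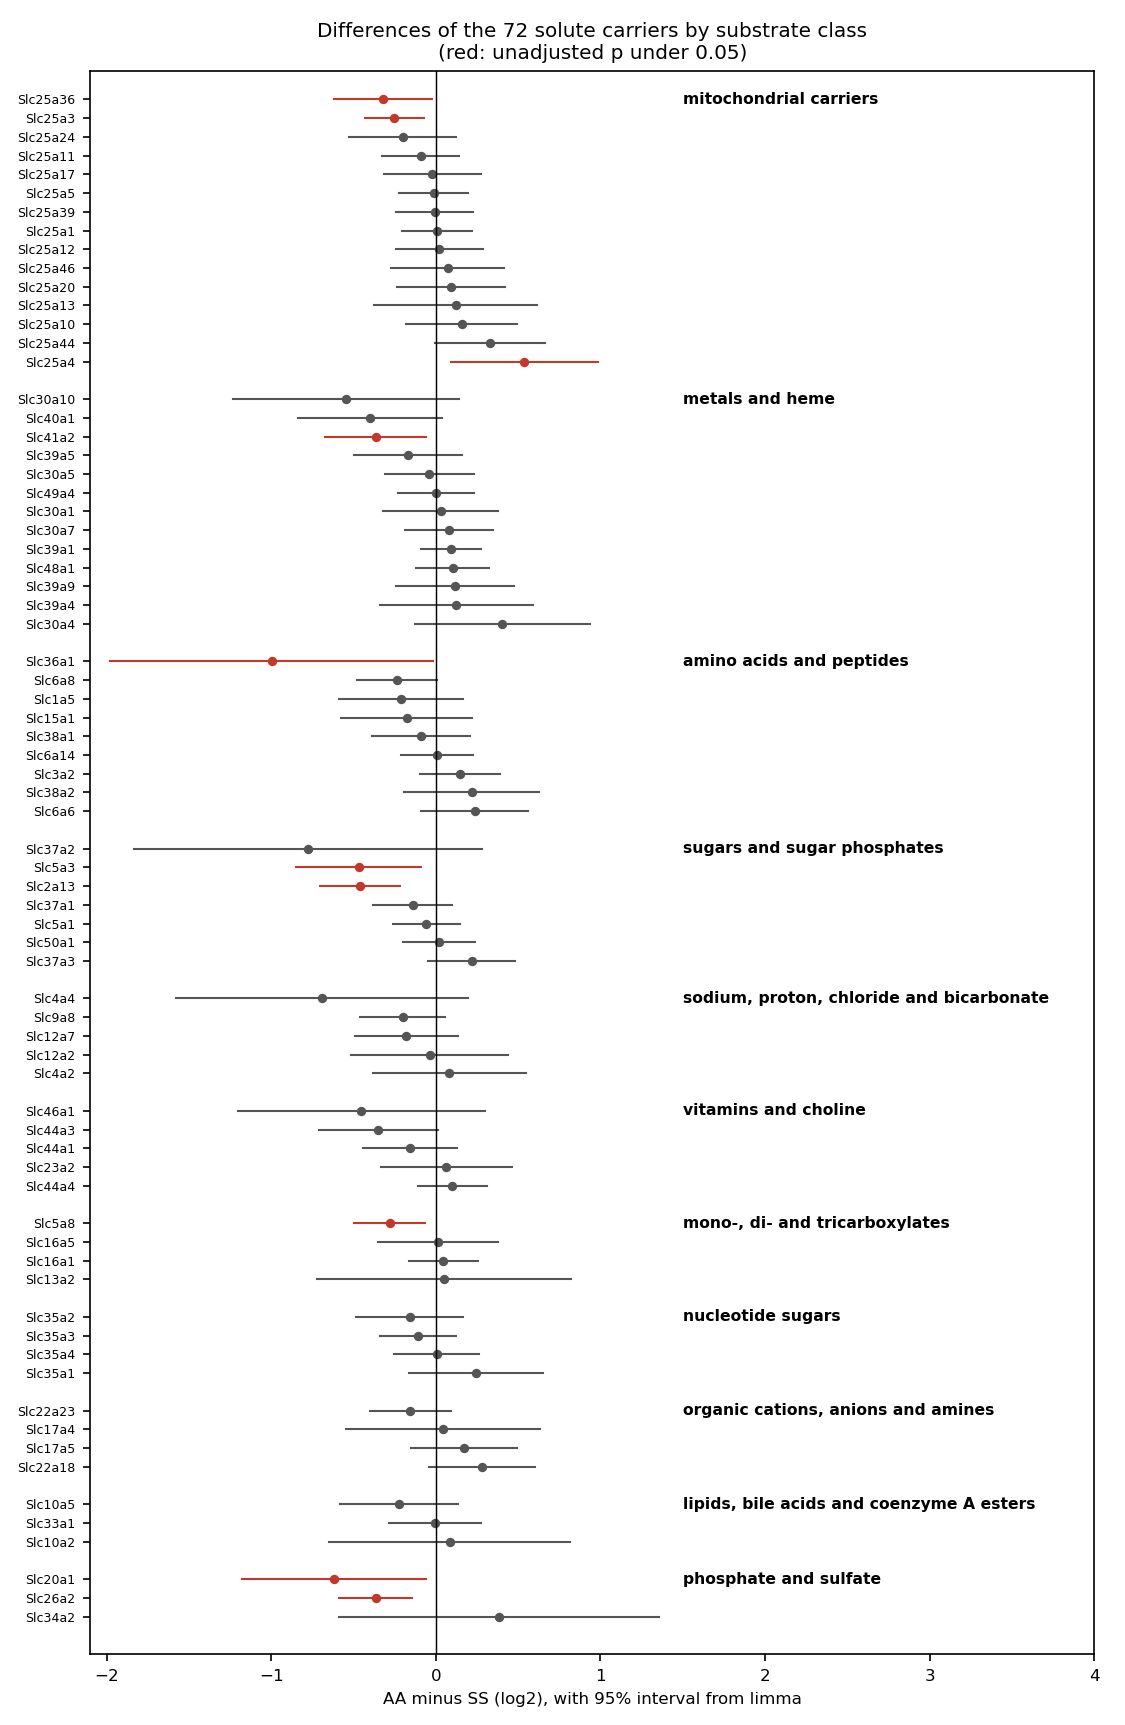
Difference AA minus SS (horizontal axis, log2) of each of the 72 members with its 95% interval from limma, grouped by substrate class and ordered by difference within a class. Red marks the 10 members at an unadjusted p under 0.05, of which 2 each belong to sugars and to phosphate and sulfate and 3 to mitochondrial carriers.

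The members varied more between arrays of a group than other probe sets did. Their median within-group SD was 0.22, against 0.15 among all probe sets with a mean of at least 8.5, which is a description of these arrays. AA replicate 2 was the lowest of the 8 arrays in 17 members and the highest in 23, or 23.6% and 31.9%, against 14.1% and 19.3% of probe sets at that level. SS replicate 1 was the lowest in 32 members, or 44.4%, against 44.98% of those probe sets.

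The 12 members with the widest range over the arrays were singled out after their values were seen. In 10 of these 12, AA replicate 2 was the lowest or the highest array. Slc37a2, Slc36a1, Slc4a4, Slc46a1 and Slc20a1 were lowest there, as were Hoxd13 and Hoxb13. Slc34a2, Slc30a4, Slc13a2, Slc17a4 and Slc25a4 were highest there, as was Fabp2. Slc17a4, a carrier of organic anions and phosphate, stood at 10.09 in that array and at 8.97 to 9.14 in the other AA arrays. Its difference of 0.041 ± 0.26 (SE) turned to -0.26 without AA replicate 2. AA replicate 1, the other AA array of batch 1, had the highest Hoxd13 value, 10.62. The deposited values had the batch means removed, so a value far below the others in 1 array raises the other arrays of its batch.

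**Figure D4:**
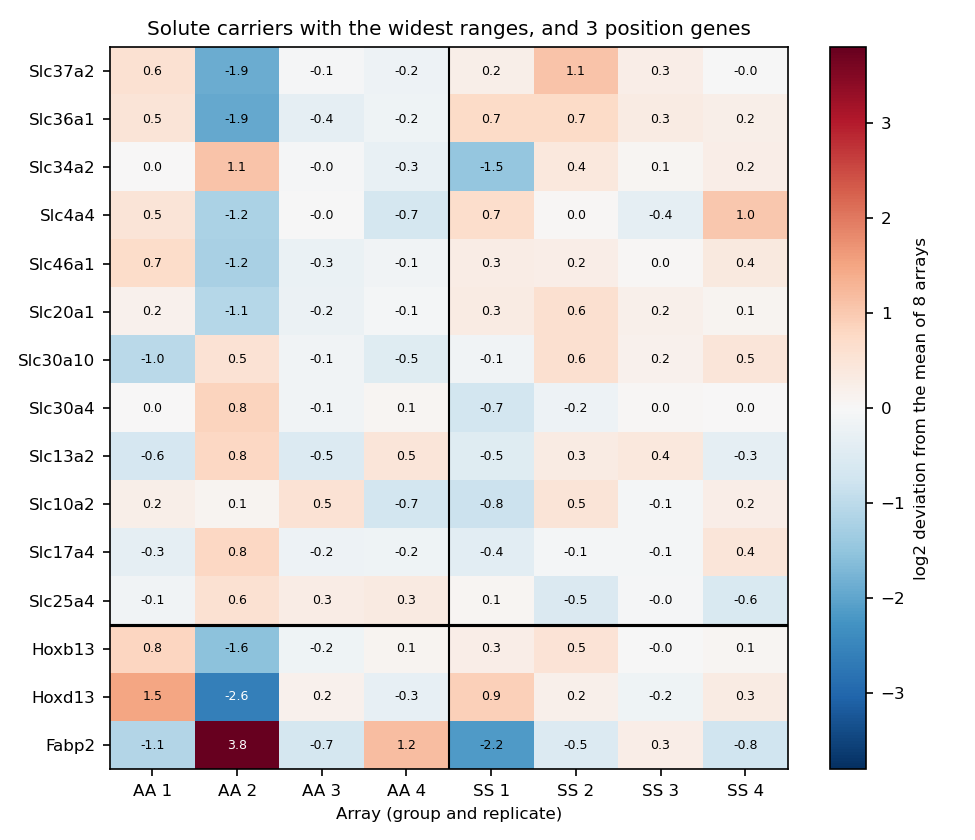
Deviation of each array (columns) from the mean of the 8 arrays (colour and printed number, log2) for the 12 members with the widest range and, under the thick line, 3 genes of position along the gut. The column of AA replicate 2 holds the lowest or highest value of 10 of the 12 members, and of Hoxb13, Hoxd13 and Fabp2.

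Genes that work with the carriers were counted in the same way. By sign 51% of all probe sets were higher, and 56.2% of those with a mean of at least 8.5. Of 9 measured partner subunits and chaperones 8 were higher by sign, 1 of them at an unadjusted p under 0.05. That gene, Slc9a3r1, the scaffold NHERF1 of apical transporters, had a mean of 11.09 ± 0.21 in AA against 10.77 ± 0.07 in SS (SD, n = 4 each; adjusted p = 0.539), and its unadjusted p lay above 0.05 without AA replicate 2. Its relative Slc9a3r2 differed by 0.19 ± 0.09 (SE). Of 11 sodium and proton pump genes 7 were higher by sign, near the shares by sign above, and 0 had an unadjusted p under 0.05 in limma. Among them Atp1b3, a subunit of the sodium pump, differed by 0.20 ± 0.09 (SE) and Atp6ap1, of the vacuolar proton pump, by 0.17 ± 0.11 (SE). The pump genes with the largest differences, named after their values were seen, were lower: Fxyd4, a regulator of the sodium pump, by -0.61 and Atp12a, the colonic proton-potassium pump, by -0.45. Without AA replicate 2 these were -0.16 and 0.31. Of 11 organic anion and ABC transporters 7 were higher by sign. Abcg2, an efflux pump of the apical membrane, differed by 0.60 ± 0.23 (SE; adjusted p = 0.555), with 11.37 in AA replicate 2 against 10.24 to 10.67 in the other AA arrays, and by 0.32 without it. Slco2a1, a prostaglandin transporter, differed by -0.24 ± 0.12 (SE).

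Around the level that admitted members, Slc9a8, Slc16a5 and Slc25a44 stood just inside, at means of 8.54, 8.54 and 8.53. Slc30a9, Slc39a11 and Slc39a7 stood just outside, at 8.496, 8.47 and 8.38. Of the 219 solute carriers below 8.5, 6 were lower and 5 higher at an unadjusted p under 0.05, which is 2.74% and 2.28%. The 5 genes left out by name differed by 0.011 to 0.21, and 0 of them reached that p in limma. Of the 6 members with several probe sets, Slc25a5 and Slc35a4 had probe sets that differed in sign. The 2 of Slc35a4 had differences of 0.0040 and -0.19, and the former was 0.050 without AA replicate 2.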

How the data were processed

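Expression was measured on 8 arrays, 4 of AA and 4 of SS. The authors deposited 1 log2 value per probe set and array, made with RMA (robust multi-array average), Affymetrix Power Tools and Partek 6.4 per the submitters' processing notes. Build, annotation release and filters: not given in the sources used here. The means of the 2 batches differed by at most 0.00006, so batch means had been removed. Precision is limited by the number of arrays. A deposited list of gene set enrichment scores, with no gene or sample, was not used here.

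Platform annotation named 18154 of 23442 probe sets by 1 gene symbol, and 308 of these were solute carriers. All 18154 were fitted with limma 3.58.1 in R 4.3.3, with batch and group as terms, no filter and Benjamini-Hochberg adjustment. The fit was tested on simulated data. Batch-centred values leave the group difference as it was. Substrate classes were assigned by gene where a gene had an entry of its own, and by gene family otherwise. The members, classes, marker and partner lists, and the naming rule were chosen with earlier results of these data known. Named were the 8 members with the smallest p in each direction, the member with the highest mean and the one with the largest difference of each class with at least 5 members, a panel of known transporters, genes around the level of 8.5 and the 2 partner genes of each list with the smallest p. Slc6a8, Slc34a2, Slc13a2 and Slc17a4 were named after their values were seen. Promoter windows are from RefSeq, GRCm38.p6.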

Additional observations from a re-analysis of the deposited data

Results flagged for a closer look

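Among 60 groups of 4 arrays (30 named genes, both groups), 2 held an array set apart from the other 3 by more than Dixon's 95% critical value allows. Chance gives about 1 in 20 groups. Slc2a13 in SS replicate 4 stood at 9.28, with the other SS arrays at 8.94 to 8.98. Slc22a18 in SS replicate 1 stood at 8.34, with the other SS arrays at 8.79 to 8.88, and its difference of 0.28 was 0.13 without that array. Slc2a13 had a difference of -0.37 at the least without any single array, and kept an unadjusted p under 0.05 in limma.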

How the results depend on the processing

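With 4 arrays a group, 0 members had an adjusted p under 0.05 in limma under any setting tried. The count at an unadjusted p under 0.05 was 10 in the reported fit. Without a batch term it was 13 (11 lower, 2 higher), beside 4.14% lower and 7.13% higher over all probe sets. Quantile normalization gave 14, all lower, beside 5.07% and 4.52%. Median centring gave 13 (12 lower, 1 higher), beside 4.53% and 3.81%. A trend and robust variance gave 8 (7 lower, 1 higher), beside 2.79% and 5.03%. In batch 1 alone the count was 6 (3 lower, 3 higher), beside 2.66% and 4.10%. In batch 2 alone it was 17 (16 lower, 1 higher), beside 7.76% and 5.28%. With 1 array left out it ran from 4 to 19. With AA replicate 2 and SS replicate 1 both left out, chosen after seeing the data, it was 23 (21 lower, 2 higher), beside 6.70% and 5.92%. The shares under these settings were not counted apart for probe sets of at least 8.5. The median difference, -0.0061, was -0.14 in batch 2 alone, -0.12 with those 2 arrays left out and -0.12 to 0.018 with 1 array left out. Correlations between same-numbered arrays ran from -0.44 to -0.093 across probe sets. These arrays share a batch whose mean had been removed, which pushes the values below 0. AA and SS arrays of the same batch with unlike numbers, under the same centring, ran from -0.42 to 0.14. The same-numbered arrays were thus no more alike, but so few pairs do not settle whether the numbers pair the samples. The labels do not say so. With the replicate block 12 members stood at an unadjusted p under 0.05, the 10 among them. Over all probe sets that setting gave 2.03% lower and 4.82% higher. Of 30 named genes, 22 kept their sign in every setting. Slc34a2, Slc13a2 and Slc17a4, not among the 30, turned with 1 array left out (ranges of -0.13 to 0.62, -0.25 to 0.31 and -0.26 to 0.23). In batch 1 alone the sign turned for Slc12a2 (0.42), Slc25a5 (0.085) and Slc35a3 (0.037), and in batch 2 alone for Slc16a1 (-0.071), Slc30a4 (-0.062), Slc35a1 (-0.16), Slc39a4 (-0.29) and Slc6a14 (-0.13). Slc6a14 also turned with quantile normalization (-0.035) and median centring (-0.030). With both arrays left out Slc16a1 (-0.034), Slc35a1 (-0.020), Slc39a4 (-0.12) and Slc6a14 (-0.094) turned. With 1 array left out the ranges were -0.22 to 0.14 for Slc12a2, -0.021 to 0.094 for Slc16a1, -0.088 to 0.020 for Slc25a5, -0.069 to 0.30 for Slc39a4 and -0.060 to 0.060 for Slc6a14. The cause was not tested.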
